A study of Sus scrofa with 2 samples.

Results

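The genes SNAP25, SNAP23, RIMS2, RAB3C, RAB3D, SYT7 and VAMP8 encode parts of the machinery that fuses secretory granules with the plasma membrane. They were listed by symbol, and their RNA was compared between the hormone-secreting nuclei and the enzyme-secreting acinar nuclei of the pig pancreas. Of these 7 symbols, 6 are among the 31908 genes of the count matrices. No gene there carries the symbol VAMP8, a granule-side SNARE, so it was skipped.

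Pancreas of 1 wild-type (WT) Bama pig and 1 transgenic (PIGinH11) Bama pig was profiled by single-nucleus RNA sequencing on the 10x Genomics platform. In this assay, nuclei are caught singly in droplets. Each droplet's RNA receives one barcode, and each RNA molecule its own unique molecular identifier (UMI). The PIGinH11 pig carries GIPRdn, hIAPP and PNPLA3 I148M as knock-ins at the H11 locus, under promoters that, as the study describes them, are specific to beta cells or liver, and the WT pig carries none of them. Both pigs were 18 months old, ate a control diet for 6 months, and then ate a high-fat, high-sucrose diet (37% sucrose, 53% control diet and 10% lard) for 12 months. Breed, age and diet were thus shared by both groups, and 1 piece of pancreas was taken for each. With 1 library in each group, genotype, animal and library cannot be told apart, no spread between animals can be measured and no test was made. The intervals below are exact 95% intervals that cover counting error only.

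In regulated exocytosis, finished granules wait near the cell surface until a rise in calcium lets them fuse. Fusion is driven by SNARE proteins, which zip the granule membrane to the plasma membrane. Rab3 proteins on the granule and RIM proteins at the release site hold the granule in place, and some of the synaptotagmins sense the calcium. Endocrine cells use this route to release hormone towards the blood, and acinar cells use it to release digestive zymogens into the duct lumen, with partly different family members.

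After filtering and doublet removal, 24980 nuclei remained, 11854 from WT and 13126 from PIGinH11. The WT library was deeper, with a median of 3018.5 UMIs per retained nucleus against 1167. The libraries shared 60 barcodes, of which 46 were retained in both. Clusters were named from marker genes as "-like" classes, and the members and the wider exocytosis list were kept out of the clustering. The endocrine-like group held 224 WT and 312 PIGinH11 nuclei, made up of 64 and 80 alpha-like, 123 and 129 beta-like, 28 and 65 delta-like, and 9 and 38 gamma-like nuclei. The acinar-like group held 8798 and 9404 nuclei. Levels are given as UMIs per 1000000 UMIs of the class (CPM).

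Levels of marker genes describe the classes. Apart from some of the digestive enzymes, these markers were also used to name the classes, so they are no independent check of the names. PCSK2, a prohormone convertase, stood at 6310 CPM (WT) and 4494 CPM (PIGinH11) in endocrine-like nuclei and at 12.8 and 24.3 CPM in acinar-like nuclei. RBPJL, an acinar transcription factor, stood at 47.7 and 109 CPM in endocrine-like nuclei and at 1783 and 2543 CPM in acinar-like nuclei. In endocrine-like nuclei, the acinar transcription factor PTF1A had 0 UMIs in WT and 3 in PIGinH11. In acinar-like nuclei no endocrine marker was at 0, and the 14 endocrine markers stood at 0.203% to 10.1% of their endocrine-like level in WT (median 0.602%) and at 0.495% to 10.9% in PIGinH11 (median 0.920%). In endocrine-like nuclei, the 12 acinar markers outside the enzymes had a median of 4.41% of their acinar-like level in WT and 7.79% in PIGinH11, and the 11 digestive enzymes a median of 24.9% and 9.82%. Most of these markers were picked by the study from these same libraries. How much of the acinar-like level of an endocrine gene came from free RNA or from mixed droplets was not tested.

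The endocrine to acinar comparison split the genes. SNAP25, RIMS2, RAB3C and SYT7 were 43.8-fold to 282-fold higher in endocrine-like nuclei, whereas SNAP23 and RAB3D were less than 2-fold apart. Thus, 4 of 6 genes were at least 2-fold higher in endocrine-like nuclei in both libraries, 0 were at least 2-fold lower and 2 were neither. Over all 16268 genes with enough UMIs for this comparison, 15.9% were at least 2-fold higher in both libraries and 11.2% were at least 2-fold lower. The median log2 ratio of all these genes was 0.08 in WT and −0.07 in PIGinH11. The 6 genes were chosen with earlier results of these data known, so these shares are given as a background and not as a test.

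**Figure D1:**
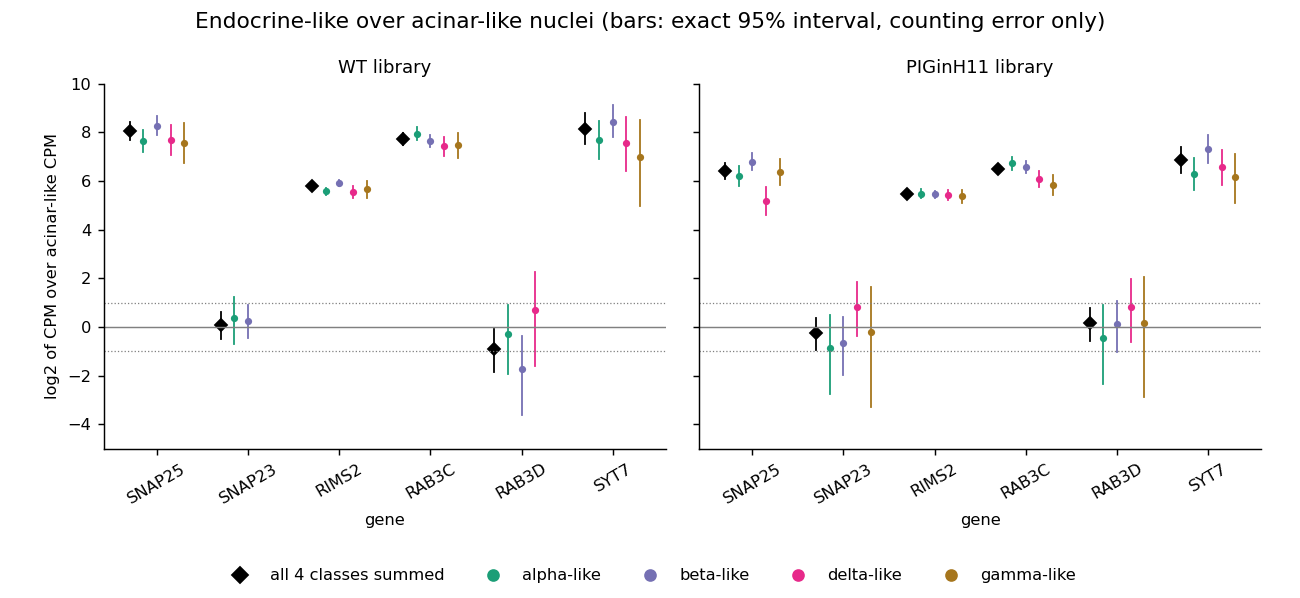
Log2 ratio of the CPM in endocrine-like nuclei over that in acinar-like nuclei (y axis) for each gene (x axis), with 1 panel per library. Diamonds are the 4 endocrine classes summed, circles the single classes and bars exact 95% intervals; dotted lines mark 2-fold, and a class with 0 UMIs is not drawn. The points of SNAP25, RIMS2, RAB3C and SYT7 lie above 5 in every class, and those of SNAP23 and RAB3D lie on both sides of 0.

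Among the SNAREs of the plasma membrane, SNAP25 is the neuronal and neuroendocrine member. It lies on chromosome 17, at 19096115 to 19227580 of Sscrofa11.1 (RefSeq gene span). In endocrine-like nuclei it stood at 566 CPM in WT (569 UMIs, 520 to 614) and at 538 CPM in PIGinH11 (464 UMIs, 490 to 589). In acinar-like nuclei it stood at 2.12 CPM (67 UMIs) and 6.38 CPM (101 UMIs). The intervals of both endocrine values were far above both acinar values, and the log2 ratio was 8.06 (7.69 to 8.45) in WT and 6.40 (6.08 to 6.72) in PIGinH11. The acinar-like level was 0.375% of the endocrine-like level in WT and 1.19% in PIGinH11, within the range given above for the endocrine markers.

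SNAP25 was found in all 4 endocrine classes. In WT it was highest in beta-like nuclei (659 CPM), followed by delta-like (442), alpha-like (425) and gamma-like (406) nuclei, of which the last 3 overlapped within their intervals. In PIGinH11 the order was beta-like (706), gamma-like (536), alpha-like (470) and delta-like (234). Beta-like nuclei held more than alpha-like nuclei in both libraries, by a log2 ratio of 0.63 (0.33 to 0.94) in WT and 0.59 (0.27 to 0.91) in PIGinH11. Outside the endocrine classes, no class passed 17.9 CPM, a value that rested on 2 UMIs in PIGinH11 lymphocyte-like nuclei.

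SNAP23, the widely expressed relative of SNAP25, lies on chromosome 1 at 128849465 to 128888972. It stood at 29.8 CPM (30 UMIs, 20.1 to 42.6) in WT and 24.3 CPM (21 UMIs, 15.1 to 37.2) in PIGinH11 endocrine-like nuclei. In acinar-like nuclei it stood at 28.0 CPM (884 UMIs) and 29.1 CPM (461 UMIs), inside the endocrine intervals. The log2 ratio was 0.09 (−0.49 to 0.61) in WT and −0.26 (−0.97 to 0.37) in PIGinH11, and its sign depended on the processing. Under median-of-ratios scaling the WT value became −0.11, and with nuclei thinned to 500 UMIs the PIGinH11 value became 0.69. A difference of 2-fold or more lies outside both intervals, while smaller differences could not be resolved with so few endocrine UMIs.

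The highest SNAP23 levels were in classes that secrete neither hormone nor enzyme. Macrophage-like nuclei held 125 CPM in WT (16 UMIs) and 145 CPM in PIGinH11 (18 UMIs). Endothelial-like nuclei held 125 and 84.7 CPM (136 and 105 UMIs), which was 4.46-fold and 2.91-fold the acinar-like level. In both libraries the neighbouring macrophage-like and endothelial-like values were not told apart by their intervals.

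RIMS2 encodes a RIM scaffold that organises docked granules near calcium channels. It is the longest of these genes, at 32999615 to 33613413 on chromosome 4. In endocrine-like nuclei it stood at 2072 CPM in WT (2084 UMIs, 1984 to 2163) and at 1840 CPM in PIGinH11 (1587 UMIs, 1750 to 1932). In acinar-like nuclei it stood at 37.6 CPM (1186 UMIs) and 42.0 CPM (665 UMIs). The log2 ratio was 5.79 (5.68 to 5.89) in WT and 5.45 (5.32 to 5.58) in PIGinH11, the smallest of the 4 genes that were higher in endocrine-like nuclei. The acinar-like level was 1.81% and 2.28% of the endocrine-like level, above most of the endocrine markers. Only NEUROD1 and CHGB had a larger share in WT, on 25 and 40 endocrine-like UMIs. In PIGinH11 only CHGB did, on 12.

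RIMS2 varied little among the endocrine classes. Its level ran from 1770 CPM in delta-like to 2255 CPM in beta-like WT nuclei, and from 1744 CPM in gamma-like to 1878 CPM in alpha-like PIGinH11 nuclei, where all 4 neighbours overlapped within their intervals. A lower level was found in ductal-like nuclei, which held 113 CPM in WT (967 UMIs) and 132 CPM in PIGinH11 (440 UMIs), which was 3.00-fold and 3.14-fold the acinar-like level. The endocrine-like level was still 18.4-fold and 13.9-fold that of the ductal-like nuclei.

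RAB3C, a granule-bound Rab3 GTPase, lies on chromosome 16 at 37411931 to 37729583. It stood at 1164 CPM in WT (1171 UMIs, 1098 to 1233) and 1214 CPM in PIGinH11 (1047 UMIs, 1141 to 1289) in endocrine-like nuclei. In acinar-like nuclei it stood at 5.51 CPM (174 UMIs) and 13.5 CPM (213 UMIs). The log2 ratio was 7.72 (7.49 to 7.96) in WT and 6.49 (6.28 to 6.71) in PIGinH11, and the acinar-like level was 0.473% and 1.11% of the endocrine-like level. Unlike SNAP25, RAB3C was highest in alpha-like nuclei, at 1365 CPM in WT and 1421 CPM in PIGinH11, against 1113 and 1292 CPM in beta-like nuclei. The beta-like over alpha-like log2 ratio was −0.29 (−0.48 to −0.11) in WT and −0.14 (−0.34 to 0.06) in PIGinH11, so the order was resolved beyond counting error in WT alone.

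RAB3D, the Rab3 protein best known from zymogen granules, lies on chromosome 2 at 70023470 to 70035679. Its level in acinar-like nuclei was 22.3 CPM in WT (704 UMIs, 20.7 to 24.0) and 22.1 CPM in PIGinH11 (349 UMIs, 19.8 to 24.5), nearly the same in both libraries. In endocrine-like nuclei it stood at 11.9 CPM (12 UMIs, 6.16 to 20.8) and 24.3 CPM (21 UMIs, 15.1 to 37.2). The log2 ratio was −0.90 (−1.86 to −0.09) in WT and 0.14 (−0.57 to 0.78) in PIGinH11, with opposite signs and overlapping intervals. With nuclei thinned to 500 UMIs the ratios were −1.35 and −0.16. In beta-like nuclei alone it was −1.75 (−3.63 to −0.39) in WT, from 4 UMIs, and 0.10 (−1.04 to 1.05) in PIGinH11, from 9 UMIs. In the WT library the digestive enzymes were also found in endocrine-like nuclei, at the median of 24.9% given above and at up to 42.4% (CLPS). The RAB3D level there was 53.5% of the acinar-like one, with an interval of 0.275-fold to 0.940-fold from 12 UMIs. In PIGinH11 RAB3D stood at 110% (0.674-fold to 1.71-fold) and the enzymes at up to 21.5%. Whether acinar RNA contributed to the endocrine-like RAB3D values was not tested. The acinar marker with the largest such share, KCNMA1, had 45.4% and 68.4%.

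RAB3D was lower in ductal-like and endothelial-like than in acinar-like nuclei. Ductal-like nuclei held 2.68 CPM in WT (23 UMIs) and 5.71 CPM in PIGinH11 (19 UMIs), and the acinar-like level was 8.33-fold and 3.87-fold higher. Endothelial-like nuclei held 10.1 CPM (11 UMIs) and 4.84 CPM (6 UMIs). In macrophage-like and lymphocyte-like nuclei, 0 or 1 UMI per library could not place it above or below the acinar-like level. The highest values were in delta-like nuclei, at 35.9 and 39.0 CPM, but they rested on 3 and 6 UMIs and overlapped with the acinar-like value.

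SYT7, a synaptotagmin with high calcium affinity, lies on chromosome 2 at 9947962 to 10012713. It stood at 215 CPM in WT (216 UMIs, 187 to 245) and 262 CPM in PIGinH11 (226 UMIs, 229 to 298) in endocrine-like nuclei. In acinar-like nuclei it stood at 0.760 CPM (24 UMIs) and 2.28 CPM (36 UMIs). The log2 ratio was 8.14 (7.53 to 8.82) in WT and 6.85 (6.33 to 7.40) in PIGinH11, the largest of the 6 genes in both libraries, though its intervals overlapped with those of SNAP25 and RAB3C. The acinar-like level was 0.354% and 0.869% of the endocrine-like level.

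SYT7 was highest in beta-like nuclei, with 260 CPM in WT and 358 CPM in PIGinH11. Alpha-like nuclei held 155 and 177 CPM, and the beta-like over alpha-like log2 ratio was 0.75 (0.25 to 1.27) and 1.02 (0.52 to 1.55). SYT7 was not confined to endocrine nuclei. Endothelial-like nuclei held 129 CPM in WT (140 UMIs) and 135 CPM in PIGinH11 (167 UMIs), 169-fold and 59.2-fold the acinar-like level and 0.599 and 0.514 of the endocrine-like level. The endothelial-like value was not told apart from that of its neighbours in the order, delta-like and gamma-like in WT and gamma-like in PIGinH11.

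**Figure D2:**
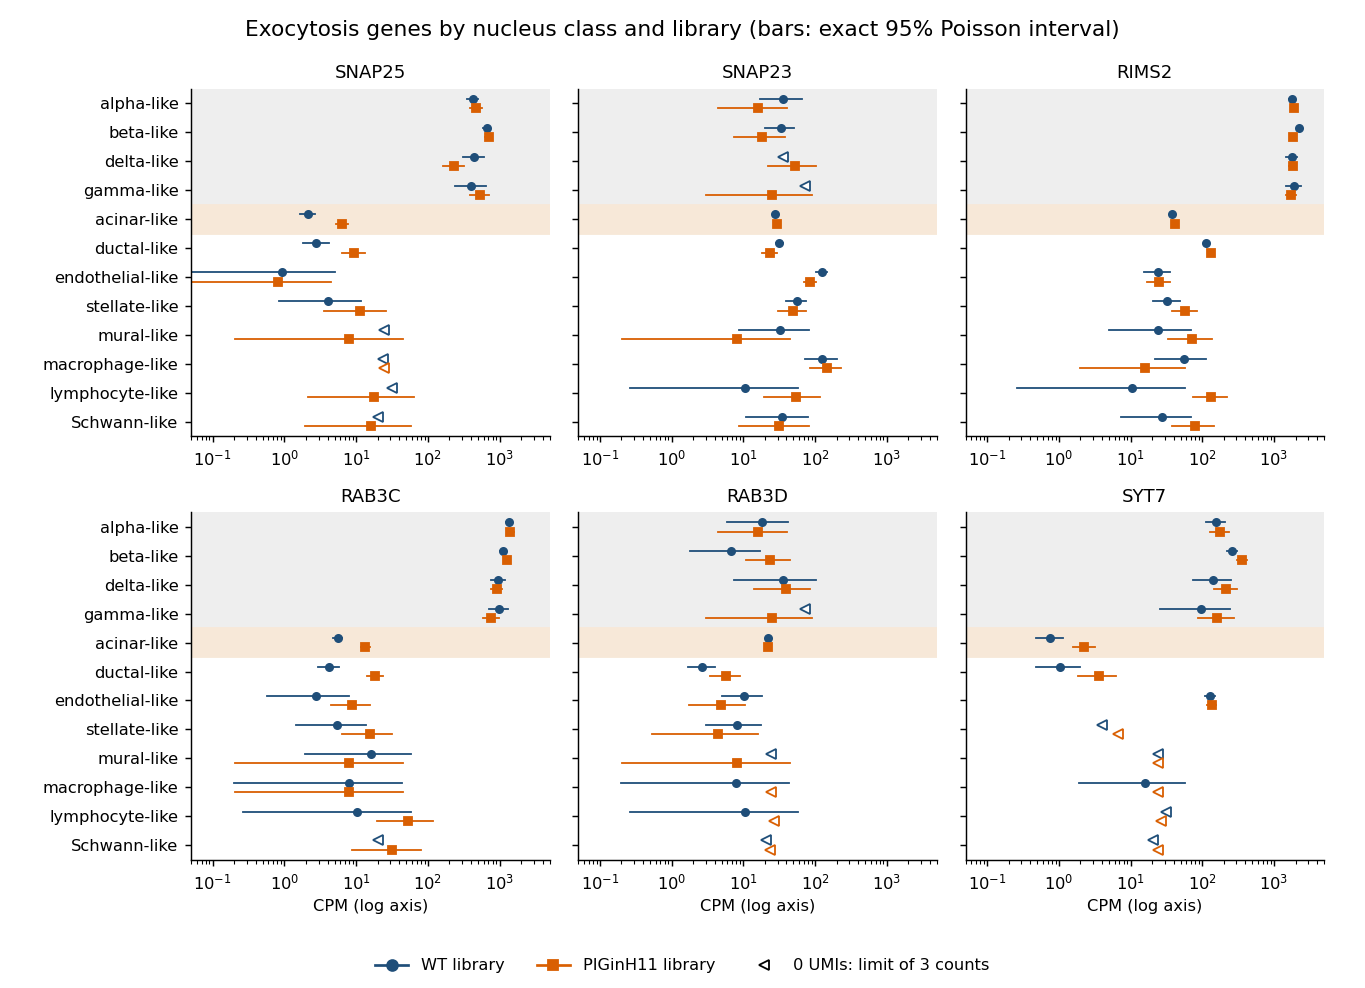
CPM on a log axis (x) in 12 classes (y) for each gene, with circles for WT, squares for PIGinH11 and bars for exact 95% Poisson intervals. Open triangles mark the limit of 3 counts where a class had 0 UMIs, the endocrine classes are shaded grey and the acinar-like class orange. SNAP25, RIMS2 and RAB3C stand apart in the grey rows, SYT7 is also high in endothelial-like nuclei, and SNAP23 is highest in macrophage-like and endothelial-like nuclei.

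Levels of different genes were compared per kilobase of gene span, since long genes can yield more nuclear reads. Intronic reads were counted, as the study's mapping summary gives a larger share of reads on the transcriptome than on exons. In beta-like nuclei, CPM per kilobase was 5.01 (WT) and 5.37 (PIGinH11) for SNAP25, 4.02 and 5.54 for SYT7, 3.67 and 3.00 for RIMS2, and 3.50 and 4.07 for RAB3C. On this scale these 4 genes lay within a narrow range, although their CPM differed widely. SNAP23 stood at 0.840 and 0.467 CPM per kilobase and RAB3D at 0.544 and 1.94, from 20 UMIs or fewer each. In acinar-like nuclei the order on this scale was turned around, with RAB3D first (1.83 and 1.81 CPM per kilobase) and SNAP23 next (0.709 and 0.738). RIMS2 followed (0.0612 and 0.0685), and SNAP25, RAB3C and SYT7 lay between 0.0117 and 0.0486. This order depends on the division by gene span. In plain CPM, RIMS2 was the highest of the 6 genes in acinar-like nuclei, at 37.6 and 42.0 CPM.

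The same contrast was seen in shares of nuclei. Each nucleus was thinned to 500 UMIs at random to remove the difference in depth, since the median nucleus held 3777 (WT) and 1985.5 (PIGinH11) UMIs in the endocrine-like class and 2876.5 and 1175 in the acinar-like class. No nucleus of these classes was shallower than this. A RIMS2 UMI was then found in 61.6% of WT endocrine-like nuclei (54.9% to 68.0%) and 48.4% of PIGinH11 ones (42.7% to 54.1%), against 96.0% and 85.3% before thinning. In acinar-like nuclei the thinned shares were 1.84% and 2.98%, and the unthinned ones 8.56% and 6.11%.

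The thinned share for RAB3C was 42.9% and 42.9% in endocrine-like nuclei (92.0% and 76.3% unthinned), and 0.477% and 1.06% in acinar-like nuclei (1.89% and 2.05%). For SNAP25 it was 25.0% and 19.2% (77.7% and 56.1%) against 0.136% and 0.510% (0.727% and 1.00%), and for SYT7 12.1% and 11.9% (52.2% and 42.9%) against 0.0682% and 0.170% (0.261% and 0.362%). Ductal-like nuclei, a second non-endocrine class with median depths of 3404 and 1026.5 UMIs, had unthinned shares of 1.02% and 1.41% for SNAP25, 1.63% and 2.60% for RAB3C and 0.418% and 0.546% for SYT7. These are close to or above the acinar-like shares. Endothelial-like nuclei had unthinned shares of 0.361% and 0.188% for SNAP25, 1.08% and 2.07% for RAB3C, and 33.9% and 19.0% for SYT7. Whether the acinar-like shares reflect expression in acinar cells was not tested.

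SNAP23 and RAB3D were rare in both classes. After thinning, SNAP23 was found in 1.34% and 2.24% of endocrine-like and 1.33% and 1.38% of acinar-like nuclei. RAB3D was found in 0.446% and 0.962% of endocrine-like and 1.11% and 1.05% of acinar-like nuclei. The unthinned acinar-like share of RAB3D was 7.13% in WT and 3.37% in PIGinH11, while its CPM was nearly equal and the WT nuclei were deeper.

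**Figure D3:**
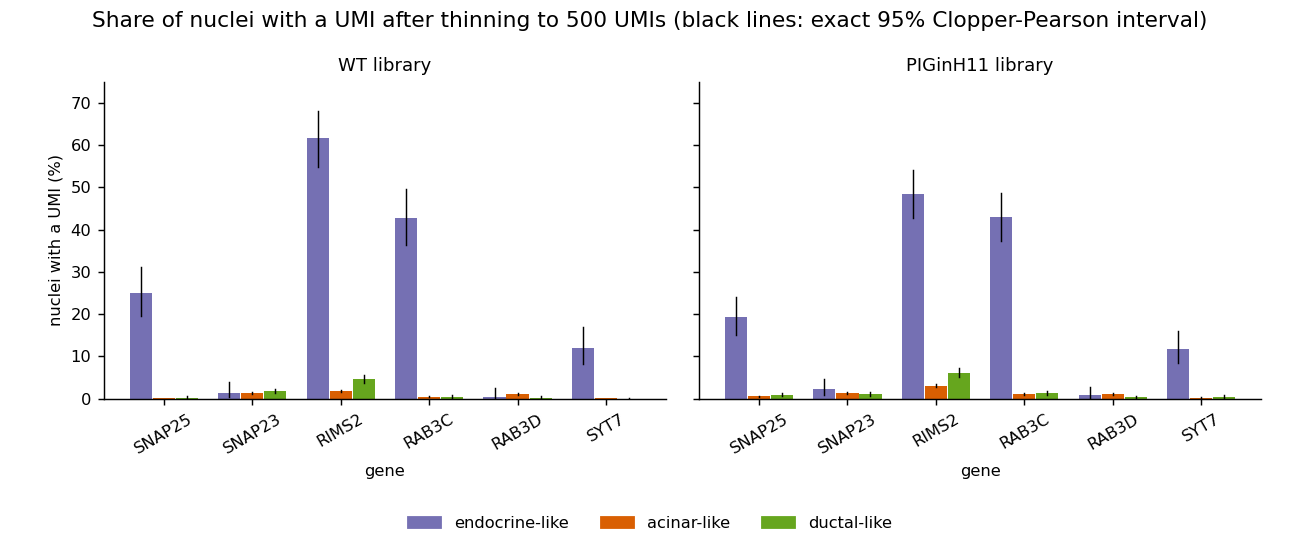
Percent of nuclei with at least 1 UMI of each gene after every nucleus was thinned to 500 UMIs, for endocrine-like, acinar-like and ductal-like nuclei, with 1 panel per library and exact 95% Clopper-Pearson intervals as black lines. The endocrine-like bars of RIMS2, RAB3C, SNAP25 and SYT7 reach 11.9% to 61.6%, and no acinar-like bar passes 2.98%.

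Several of the endocrine genes could be found in the same nucleus, depending on depth. Of SNAP25, RIMS2, RAB3C and SYT7, all 4 had a UMI in 41.5% of WT and 24.0% of PIGinH11 endocrine-like nuclei, and none had one in 0.446% and 3.21%. In acinar-like nuclei none was found in 88.9% and 90.8%, and 0 of the 18202 nuclei held all 4, which allows a share of up to 0.0165%. These shares move with depth. After thinning to 500 UMIs, all 4 were found in 0.893% and 0.321% of endocrine-like nuclei and none in 15.6% and 22.8%.

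The few UMIs of endocrine genes in acinar-like nuclei were not spread evenly over the 7 acinar-like clusters. Cluster 20, with 9 WT and 37 PIGinH11 nuclei, held summed endocrine markers at 6208 and 3344 CPM and met 13 of 15 acinar markers. It was kept in the acinar-like values, and whether it holds mixed droplets was not tested. Among the other 6 clusters, the endocrine markers were highest in cluster 1, at 255 CPM in WT and 524 CPM in PIGinH11. They stood at 103 and 105 CPM in cluster 5. SNAP25 stood at 7.16 CPM (28 UMIs) and 20.1 CPM (58 UMIs) in cluster 1, against 1.65 CPM (14 UMIs) and 1.85 CPM (10 UMIs) in cluster 5. RAB3C stood at 14.1 and 33.7 CPM in cluster 1 and at 2.48 and 3.70 CPM in cluster 5.

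RIMS2 varied less, from 45.3 and 85.7 CPM in cluster 1 to 27.9 and 23.3 CPM in cluster 5. In WT cluster 3 it stood at 51.3 CPM (493 UMIs), above WT clusters 2 and 5 (29.9 and 27.9 CPM), although the endocrine markers there were about equal, at 103 to 105 CPM. SNAP23 and RAB3D varied less than 2-fold over clusters 1 to 5. RAB3D lay between 17.2 and 25.7 CPM in clusters 1 to 5 of both libraries, and SNAP23 between 22.9 and 37.0 CPM, with the highest value in PIGinH11 cluster 3 (91 UMIs, 29.8 to 45.4).

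Cluster 10 stood apart for both of these genes. It is rich in digestive enzyme RNA, with PRSS2 (trypsinogen) at 339350 CPM in WT. It met only 4 of 15 acinar markers, the fewest of the acinar-like clusters. There RAB3D stood at 1.58 CPM (2 UMIs) and SNAP23 at 5.53 CPM (7 UMIs) in the 343 WT nuclei. The 77 PIGinH11 nuclei of cluster 10 held 1 UMI of RAB3D and 0 of SNAP23. CPM is relative to a total that includes this enzyme RNA, and RBPJL was also low in that cluster, at 75.1 CPM in WT.

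**Figure D4:**
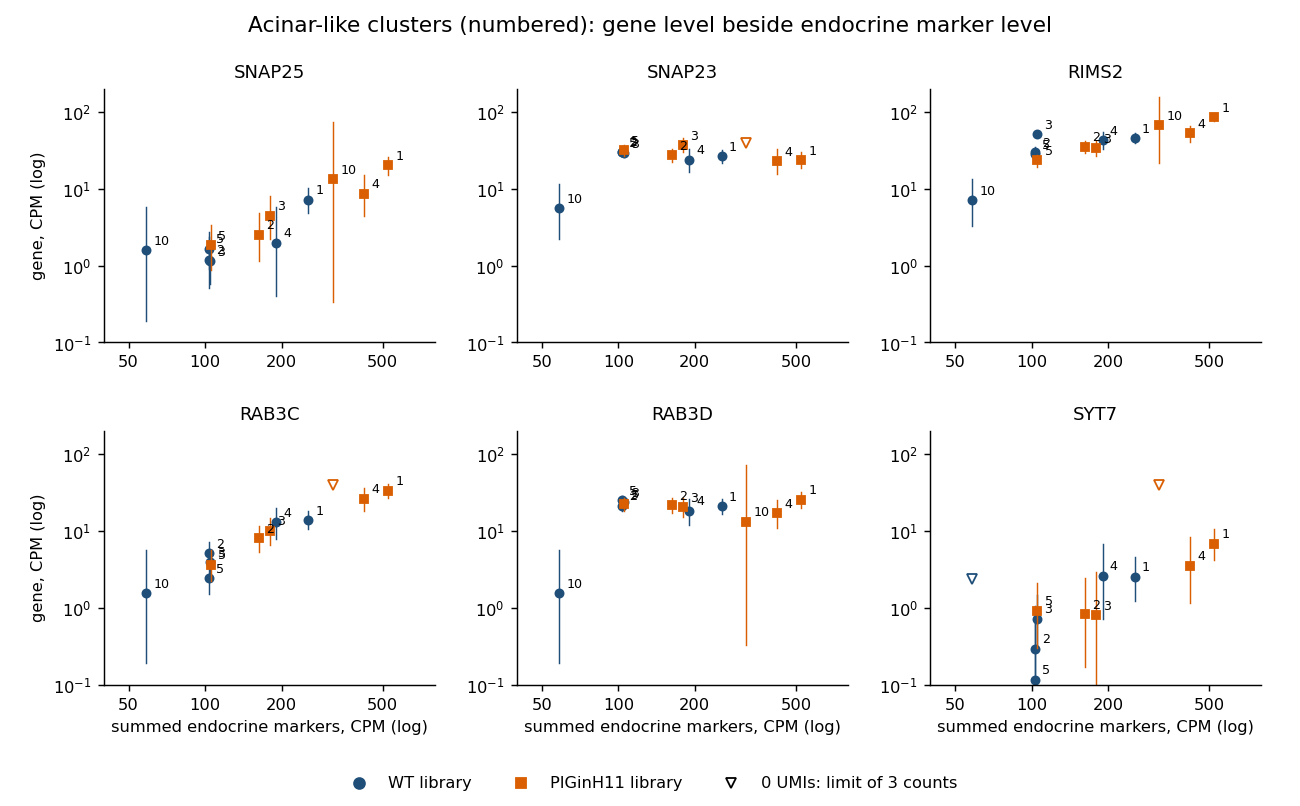
CPM of each gene (y, log axis) beside the summed CPM of the 14 endocrine markers (x, log axis) in the acinar-like clusters 1 to 5 and 10, numbered, with circles for WT, squares for PIGinH11 and bars for exact 95% Poisson intervals, drawn down to the lower edge of the plot. Open triangles are the limit of 3 counts where a cluster had 0 UMIs. SNAP25 and RAB3C are highest in cluster 1, where the markers are highest, SYT7 in clusters 1 and 4, while SNAP23 stays between 22.9 and 37.0 CPM and RAB3D between 17.2 and 25.7 CPM over clusters 1 to 5.

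The unnamed endocrine nuclei were kept out of these values. Of these, 7 WT and 5 PIGinH11 nuclei formed a small cluster. The others were 42 WT and 137 PIGinH11 nuclei of a cluster that acinar markers matched best, with RBPJL at 657 and 1777 CPM. Its SNAP25 level was 435 CPM in WT and 217 CPM in PIGinH11, its RIMS2 level 1101 and 769 CPM, its RAB3C level 861 and 379 CPM, and its SYT7 level 167 and 70.4 CPM. In PIGinH11 the intervals of all 4 genes lay below those of the named endocrine-like nuclei. In WT this held for RIMS2 (912 to 1318) and RAB3C (695 to 1054), whereas SNAP25 (320 to 578) and SYT7 (18 UMIs, 98.7 to 263) overlapped with them.

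The second comparison sets PIGinH11 against WT within a class. In endocrine-like nuclei, 1 of 6 genes was at least 2-fold apart, against 11.3% of 9330 genes. That gene was RAB3D, with a log2 ratio of 1.03 (−0.06 to 2.19) from 12 and 21 UMIs, and it fell below 2-fold or below the UMI minimum under 9 of 17 alternatives. For the 4 endocrine genes the ratio of the summed classes stayed near 0. It was −0.07 (−0.25 to 0.11) for SNAP25, −0.17 (−0.27 to −0.08) for RIMS2, 0.06 (−0.06 to 0.18) for RAB3C and 0.29 (0.01 to 0.56) for SYT7. In delta-like nuclei alone SNAP25 was lower in PIGinH11, at −0.92 (−1.62 to −0.22) from 37 and 36 UMIs. The other delta-like and all alpha-like and gamma-like intervals of these genes held 0. In the unnamed cluster with acinar markers the ratios ran from −0.52 (RIMS2) to −1.24 (SYT7). The median over all genes was 0.06.

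In beta-like nuclei, a cell type that the transgene promoters target, 0 of the 5 genes with enough UMIs were 2-fold apart, against 13.2% of 6802 genes. RIMS2 was lower in PIGinH11, at 1840 CPM against 2255 CPM, with a log2 ratio of −0.29 (−0.43 to −0.16). SYT7 was higher, at 358 CPM against 260 CPM, with a log2 ratio of 0.46 (0.12 to 0.80). SNAP25 (0.10, −0.13 to 0.33) was within counting error of no difference, and RAB3C (0.21, 0.04 to 0.38) was just outside it. SNAP23 (−0.85, −2.33 to 0.45) rested on 20 and 7 UMIs, and RAB3D (1.84, −0.003 to 3.99) on 4 and 9, below the UMI minimum.

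In acinar-like nuclei, 3 of 6 genes were at least 2-fold higher in PIGinH11, against 26.0% of 19201 genes apart in either direction. They were SNAP25 (log2 ratio 1.59, 1.13 to 2.06), SYT7 (1.58, 0.80 to 2.39) and RAB3C (1.29, 0.99 to 1.59), each from 24 to 213 UMIs per library. The median over all genes was 0.34, and the summed endocrine markers in acinar-like nuclei were also higher in PIGinH11, at 241 CPM against 130 CPM. The 4 hormone genes (GCG, INS, PPY and SST) went the other way there, at a summed 129 CPM in PIGinH11 against 269 CPM in WT. Their sum was also lower in PIGinH11 endocrine-like nuclei, at 4156 CPM against 6996 CPM. Cluster 5, which was picked after the data were seen, held endocrine markers at about equal levels in both libraries. There the log2 ratio was 0.17 for SNAP25, from the few UMIs given above, and 0.58 for RAB3C. For SYT7 it was 2.97, from only 1 and 5 UMIs, which is below the UMI minimum. Over all acinar-like nuclei, the log2 ratio was 0.06 (−0.11 to 0.22) for SNAP23 and −0.02 (−0.21 to 0.17) for RAB3D. These values became −0.22 and −0.29 under median-of-ratios scaling. The rise of the 3 genes was not particular to acinar-like nuclei. In ductal-like nuclei the log2 ratio was 1.74 (0.92 to 2.57) for SNAP25, 1.78 (0.41 to 3.21) for SYT7 and 2.15 (1.54 to 2.79) for RAB3C. In endothelial-like nuclei SYT7, which is itself high there, had 0.07 (−0.27 to 0.40). RAB3C had 1.69 (−0.23 to 4.17) in that class, from 3 and 11 UMIs, and SNAP25 had only 1 UMI in each library. The part of the endocrine marker RNA in the acinar-like ratios was not tested.

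Genes with the most similar profile over the 12 classes of both libraries (24 points, Pearson correlation of log2 CPM with an offset of 5, 11630 genes compared) were listed as a description. The classes of one library share its depth, and gene length was not adjusted for. RAB3C was most like PCSK2 (r = 0.985), CNTN5 (0.983) and SNAP25 (0.981). SNAP25 was most like RIMBP2 (0.982), RAB3C (0.981) and CERKL (0.980), and RIMS2 most like SNAP25 (0.978), USH1C (0.978) and RIMBP2 (0.977). SYT7 had lower values, with CACNA1E (0.892), RBFOX1 (0.884) and ANKH (0.876) first. SNAP23 was nearest to RCBTB2 (0.842), ASAH1 (0.824) and NEMP1 (0.819), and RAB3D to HESX1 (0.784), FKBP6 (0.749) and FAM110C (0.726).

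A wider list of 88 exocytosis genes was set beside these, of which 83 were in the matrices and 73 had enough UMIs. At least 2-fold higher in endocrine-like nuclei in both libraries were 24 of the 73 (32.9%, against 15.9% of all genes), and at least 2-fold lower were 8 (11.0%, against 11.2%). The other 41 were neither. This list was also chosen with earlier results of these data known, so the shares are no test of it. The median log2 ratio of the list was 0.81 in WT and 0.42 in PIGinH11.

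The endocrine-high genes included members of the synaptotagmin family, the release-site scaffolds, the Rab3 group and the synaptic-vesicle proteins. Among synaptotagmins, SYT13 stood at 192 and 320 CPM in endocrine-like nuclei against 0.570 and 1.90 CPM in acinar-like nuclei (log2 ratio 8.39 and 7.40), the largest of the list in both libraries. SYT16 (6.00 and 5.27) and SYT14 (4.67 and 4.30) were also among the 8 highest. SYT16 was present in ductal-like nuclei too, at 56.9 and 51.3 CPM.

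Of the scaffolds, RIMBP2, which links RIM to calcium channels, stood at 1060 and 1119 CPM against 6.11 and 13.0 CPM (7.44 and 6.42). PCLO, the large scaffold piccolo, stood at 1343 and 1294 CPM against 6.21 and 15.5 CPM (7.76 and 6.38), and was higher in alpha-like (1880 and 1935 CPM) than in beta-like nuclei (1032 and 851 CPM). RAB3B, a further Rab3 GTPase, stood at 125 and 126 CPM against 1.55 and 2.09 CPM (6.33 and 5.92). The clamp protein CPLX2 (7.16 and 5.69) and the vesicle glycoprotein SV2C (5.94 and 5.03) complete the 8 highest.

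The 8 genes that were lower in endocrine-like nuclei were no larger a share (11.0%) than that of all genes (11.2%). Of these 8, 4 encode Rab27 effectors. The other effectors on the list, SYTL3, EXPH5, MYRIP, MLPH, RPH3A, RPH3AL and UNC13D, were neither, and RPH3AL had log2 ratios of 0.90 and 1.07. SYTL1, SYTL2, SYTL4 and SYTL5 encode synaptotagmin-like proteins (Slp), which bind Rab27 on granules. SYTL5 stood at 570 and 546 CPM in acinar-like against 54.7 and 90.4 CPM in endocrine-like nuclei (log2 ratio −3.38 and −2.59), and SYTL2 at 117 and 108 CPM against 7.95 and 22.0 CPM (−3.87 and −2.29). SYTL1 (−2.75 and −2.75) and SYTL4 (−1.35 and −1.47) had the same direction on 3 and 3, and 16 and 14 endocrine-like UMIs. CADPS2, which primes granules for release, stood at 1487 and 1334 CPM against 126 and 231 CPM (−3.56 and −2.53), and it was highest in Schwann-like nuclei (2197 and 1633 CPM).

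The remaining acinar-high genes were CPLX4, a complexin (−2.36 and −2.89), NAPB, an adaptor of SNARE recycling (−1.75 and −1.63), and STXBP2, the Munc18 protein of many secretory epithelia and blood cells (−1.02 and −1.25). CPLX4 and NAPB rested on 13 or fewer endocrine-like UMIs per library.

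**Figure D5:**
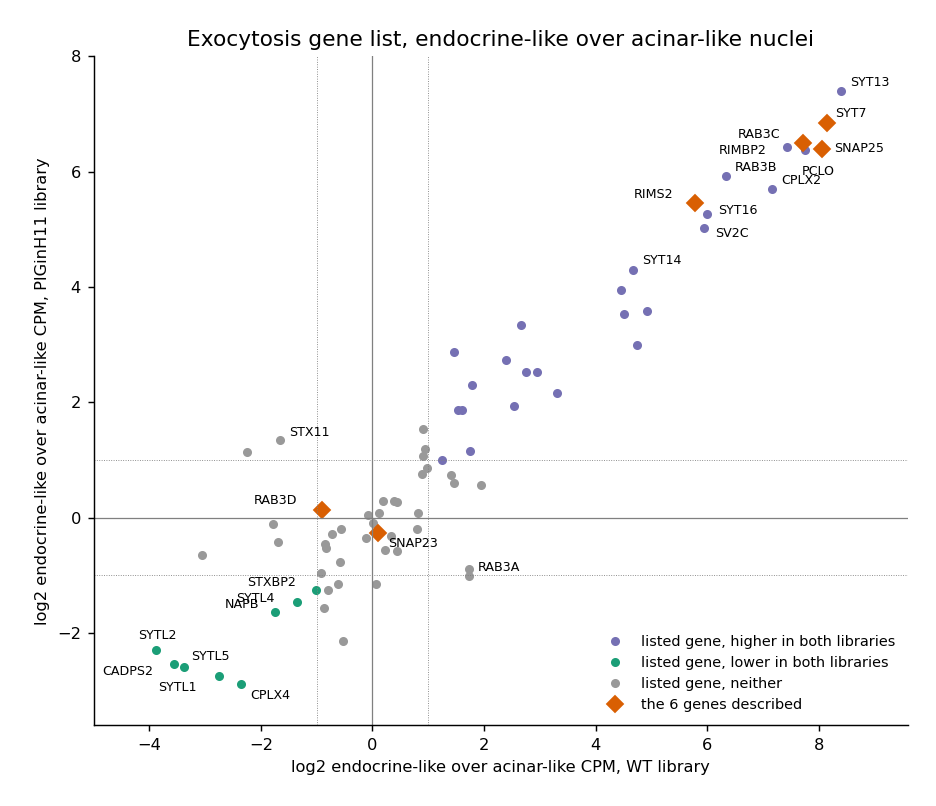
Log2 ratio of endocrine-like over acinar-like CPM in WT (x) and PIGinH11 (y) for the listed exocytosis genes (circles) and the 6 genes described (diamonds), with dotted lines at 2-fold. RAB37, MLPH and SV2B, which had 0 UMIs in a class, are not drawn. SNAP25, RIMS2, RAB3C and SYT7 lie at the upper right beside SYT13, RIMBP2 and PCLO, SNAP23 and RAB3D lie near the centre, and the acinar-high genes lie at the lower left.

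For STX11, a syntaxin of blood cells, and RAB3A, a synaptic Rab3 GTPase, the endocrine-like over acinar-like ratio passed 2-fold in opposite directions in the libraries. The log2 ratio of STX11 was −1.66 (−6.98 to 0.85) in WT and 1.35 (−0.36 to 2.70) in PIGinH11. That of RAB3A was 1.72 (0.62 to 2.67) and −1.01 (−6.35 to 1.56). Only the WT interval of RAB3A lay clear of no difference, so the opposite directions were not resolved. STX11 had 1 and RAB3A 10 endocrine-like UMIs in WT, and 5 and 1 in PIGinH11.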

How the data were processed

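Nuclei of 1 WT and 1 PIGinH11 pancreas were profiled with 10x Genomics 3′ chemistry. The authors deposited UMI counts per gene and barcode, as filtered matrices without further normalization. According to the methods and the submitters' processing notes, reads were aligned to Sscrofa11.1 with Cell Ranger 3.1.0 and analysed with Seurat 3.1.1, whereas the matrix headers name Cell Ranger 5.0.0. Intronic reads were included, since the study's mapping summary gives a larger share of reads on the transcriptome than on exons. The WT library had 13619 barcodes with 55784067 UMIs (median 3216) and the PIGinH11 library 14964 barcodes with 26228811 UMIs (median 1181.5). Depth per nucleus was thus lower in PIGinH11. The counting intervals depend on the UMIs summed over a class, and they were not always wider in PIGinH11.

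Following the study's limits, barcodes with 270 to 3700 genes, under 13000 UMIs and under 10% mitochondrial UMIs were kept. The methods print 1300 for the UMI limit, which was run as an alternative. Doublets were called by the Scrublet method in scanpy 1.11.5, in place of the study's DoubletFinder, as the highest-scoring 0.8% for each 1000 barcodes, which removed 1484 and 1791 barcodes. Counts were scaled to 10000 per nucleus, and 2000 variable genes, 30 components, Harmony, 20 neighbours and Louvain clustering at resolution 1 (python-igraph 0.11.9, seed 0) gave the clusters. The members, the wider list, 60 ribosomal and 13 mitochondrial genes were kept out of clustering. Naming a cluster took 3 or more class markers, each detected in 5% or more of the nuclei and with a log2 fold of 1 or more over clusters of other classes, and 10 leading genes that did not go against the name. The first step of naming was revised after an earlier version left most acinar clusters unnamed, with the markers unchanged. The symbols of 841 genes came from the reference gene table, which also gave the RefSeq gene spans.

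UMIs were summed per class and library (python 3.11.15, numpy 2.4.6, scipy 1.17.1, scikit-learn 1.9.0, matplotlib 3.10.9). Levels have exact Poisson intervals, ratios exact conditional binomial intervals and shares Clopper-Pearson intervals, all at 95%. A gene entered the endocrine to acinar comparison with at least 20 UMIs over both classes in each library. For PIGinH11 against WT it needed at least 20 UMIs in the class over both libraries together. Genes were counted past 2-fold. A count of 0 was given a limit of 3 counts. Profile likeness used genes of at least 10 CPM in a class in each library. Counts were simulated for the endocrine to acinar comparison with counting error only, and 200 of 16268 genes were changed, all by well over 2-fold. In both libraries, 96.0% of raised, 67.7% of lowered and 0.890% of unchanged genes were counted past 2-fold. Of the intervals, which were checked on a part of the genes, 96.5% held the true value. Recovery of changes nearer 2-fold, and any spread beyond counting error, were not measured.

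The text names all members, up to 8 listed genes with the largest ratios shared by both libraries in each direction, those in opposite directions, and the 3 genes most alike in profile. The members and lists were chosen with earlier results of these data known. Alternatives covered doublet removal, the UMI limit, the gene minimum, Harmony, resolution, clustering genes, scaling, means over nuclei, thinning to 500 UMIs, the UMI minimum, subtraction of the UMIs per nucleus of endothelial-like nuclei and the choice of endocrine nuclei. Leaving out acinar-like cluster 20, using acinar-like cluster 5 alone, and subtracting the endothelial-like CPM were chosen after seeing the data. With 1 library per group, no test was made. Some genes of the lists are not reported here.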

Additional observations from a re-analysis of the deposited data

How the results depend on the processing

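No paired analysis was possible because each group has 1 library, and for the same reason no library could be left out. Of the recomputed counts of genes, 124 stayed within 1.5 times the reported count and 21 did not. The members that were at least 2-fold higher in endocrine-like nuclei were 4 under every alternative but the UMI limit of 1300, which left 4 WT and 39 PIGinH11 endocrine-like nuclei. That limit gave 2 such members, 4 higher and 1 lower listed genes (24 and 8 reported), and 1 member apart between the libraries in beta-like and 0 in acinar-like nuclei (0 and 3 reported). The count of lower listed genes was 4 with nuclei thinned to 500 UMIs. The 1 member apart between the libraries in endocrine-like nuclei became 0 with double the expected doublet rate, without Harmony, at resolution 2, with the members among the clustering genes, under both other scalings, with at least 100 UMIs, with all endocrine-like clusters and with nuclei assigned by hormone. In beta-like nuclei, 1 member was apart as a mean over nuclei, after thinning and with a minimum of 1 UMI. In acinar-like nuclei, 0 were apart in cluster 5 alone, where SYT7 had a log2 ratio of 2.97 but fell below the UMI minimum. The RAB3C log2 ratio of PIGinH11 over WT in acinar-like nuclei was 1.29 as reported and −1.12 after subtraction of the UMIs per nucleus found in endothelial-like nuclei, a class in which SYT7 and SNAP23 are themselves high. Subtraction of the endothelial-like CPM instead gave 0.74, with 1 member apart in acinar-like nuclei and 13 lower listed genes. The cause of these changes was not tested, apart from the smaller number of nuclei or UMIs that the limits leave. Median-of-ratios scaling shifted the endocrine to acinar log2 ratios by a median of 0.20 in WT and 0.15 in PIGinH11, and the acinar-like ratios between libraries by 0.27. The few endocrine-like UMIs of SNAP23 and RAB3D limit what can be resolved for them.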

Other observations

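Among the endocrine classes, gamma-like nuclei had the highest point values of a pair of genes of the Rab27 group, which were picked after their values were seen. RAB27B, the Rab GTPase bound by the synaptotagmin-like proteins, stood at 191 CPM (8 UMIs, 82.6 to 377) in WT and 461 CPM (37 UMIs, 324 to 635) in PIGinH11 gamma-like nuclei. Beta-like nuclei held 8.30 and 13.2 CPM, alpha-like nuclei 10.8 and 36.1 CPM, and delta-like nuclei 0 UMIs in WT and 65.0 CPM in PIGinH11. SYTL5, which binds Rab27, stood at 502 CPM (21 UMIs, 311 to 767) and 311 CPM (25 UMIs, 201 to 460) in gamma-like nuclei, against 21.6 and 31.6 CPM in beta-like and 28.8 and 60.2 CPM in alpha-like nuclei. Delta-like nuclei held 155 CPM (82.8 to 266) and 169 CPM (110 to 248), and the PIGinH11 interval overlapped with the gamma-like one. The WT values came from 9 nuclei.

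SYTL2 was high in mural-like and lymphocyte-like nuclei, and low in endothelial-like nuclei (12.9 and 22.6 CPM) and macrophage-like nuclei (23.5 and 16.2 CPM). Mural-like nuclei held 233 CPM (29 UMIs, 156 to 335) in WT and 846 CPM (105 UMIs, 692 to 1024) in PIGinH11. Lymphocyte-like nuclei held 229 CPM (22 UMIs) and 491 CPM (55 UMIs).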
